A study of Mus musculus with 16 samples.

Results

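The genes described here are 9 genes of myelin and of mature oligodendrocytes: Mbp, Mog, Mag, Mobp, Cnp, Mal, Opalin, Myrf and Bcas1. They were taken by gene symbol from an expression table of 23355 genes, and all 9 were among the 15007 genes that passed a filter on low values. The table covers 16 mouse brain tumours of a diffuse midline glioma model, 7 with the histone mutation H3.3K27M and 9 with unmutated H3.3 (H3.3WT). Every tumour arose in an untreated C57BL/6 mouse of genotype Nestin Tv-a; p53 fl/fl that received avian RCAS viruses soon after birth and was taken at endpoint. In H3.3K27M mice the viruses carried PDGFA, H3.3K27M and Cre, and in H3.3WT mice they carried PDGFA, H3.3WT and Cre. Both groups therefore share the growth factor PDGFA and Cre-mediated loss of p53, and differ in the histone virus. Tv-a, the receptor for these viruses, is driven by the Nestin promoter, which is active in neural progenitors, and the RNA came from bulk tumour. The ages at endpoint are not given in the labels.

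Libraries carry the numbers of the deposited table, whose means split them into 10 to 16 and 1 to 9. The labels name 7 H3.3K27M and 9 H3.3WT tumours, so these sets were read as H3.3K27M and H3.3WT by their sizes, and all directions given depend on that reading. Single libraries could not be linked to single tumours, and the series' own design note mentions fewer tumours (5 H3.3K27M and 3 H3.3WT) than its labels. Values are normalized counts, that is, reads per gene divided by 1 size factor per library. Libraries held 11439144 reads (library 8) to 41730692 reads (library 16), and the other 14 held at least 30377560. Where a gene had no read, up to 3 reads are possible by counting error alone, equal to 2.42 (library 16) to 8.52 (library 8) normalized counts.

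Myelin is the stacked membrane that oligodendrocytes wrap around axons in the central nervous system. Oligodendrocyte progenitors first become committed precursors, which switch on Bcas1 and the transcription factor Myrf. They then mature into cells that make the proteins of compact myelin, such as Mbp and Mobp, and those of its inner and outer surface, such as Mag and Mog. Diffuse midline gliomas driven by PDGF signalling are known for cells like oligodendrocyte progenitors, and normal white matter is rich in myelin transcripts.

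None of the 9 genes differed between H3.3K27M and H3.3WT tumours beyond the spread among tumours. Of the 9, 0 passed an adjusted p of 0.05 by limma with Benjamini-Hochberg adjustment over all genes, where 0% of the 15007 genes passed. Before adjustment, 0 of the 9 genes had a p under 0.05, against 15.3% of all genes (8.7% higher and 6.61% lower in H3.3K27M tumours), and edgeR's quasi-likelihood test called 0 of the 9, where it called 0% of genes. DESeq2's Wald test also called 0 of the 9, where it called 0.72% of genes (0.446% higher and 0.273% lower). In all 9 genes the groups overlapped, and over all genes 0.0333% had groups that did not overlap. The log2 fold change of H3.3K27M over H3.3WT lay below 0 for 7 genes and above 0 for 2, with a median of -0.37, whereas 49.5% of all genes lay below 0 and their median was 0.0048. Without library 6, 4 of the 9 lay below 0 and 5 above, and the median was 0.040. Because these are bulk samples, fewer cells of a type and less RNA per cell cannot be told apart.

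Single tumours spread widely in most of these genes. The SD of log2 values around the group means was above that of the median gene (0.467) for all 9 genes, and their own median was 1.59. Mobp, which encodes a protein of compact myelin, had an SD of 4.20, above 99.96% of genes. Opalin at 2.39 and Mog at 2.10 also lay above 98.6% of genes or more. Cnp and Myrf, both at 0.74, lay above 75.1% and 74.9% of genes, and Bcas1 was the least variable at 0.53, above 58.9%. Such spread was not particular to these genes. The neuron marker Thy1 lay above 85.5% of genes at an SD of 0.99, and the blood haemoglobin gene Hbb-bs above 99.92% at 3.43. No test was made of these spreads, and low counts vary more on a log scale.

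**Figure D1:**
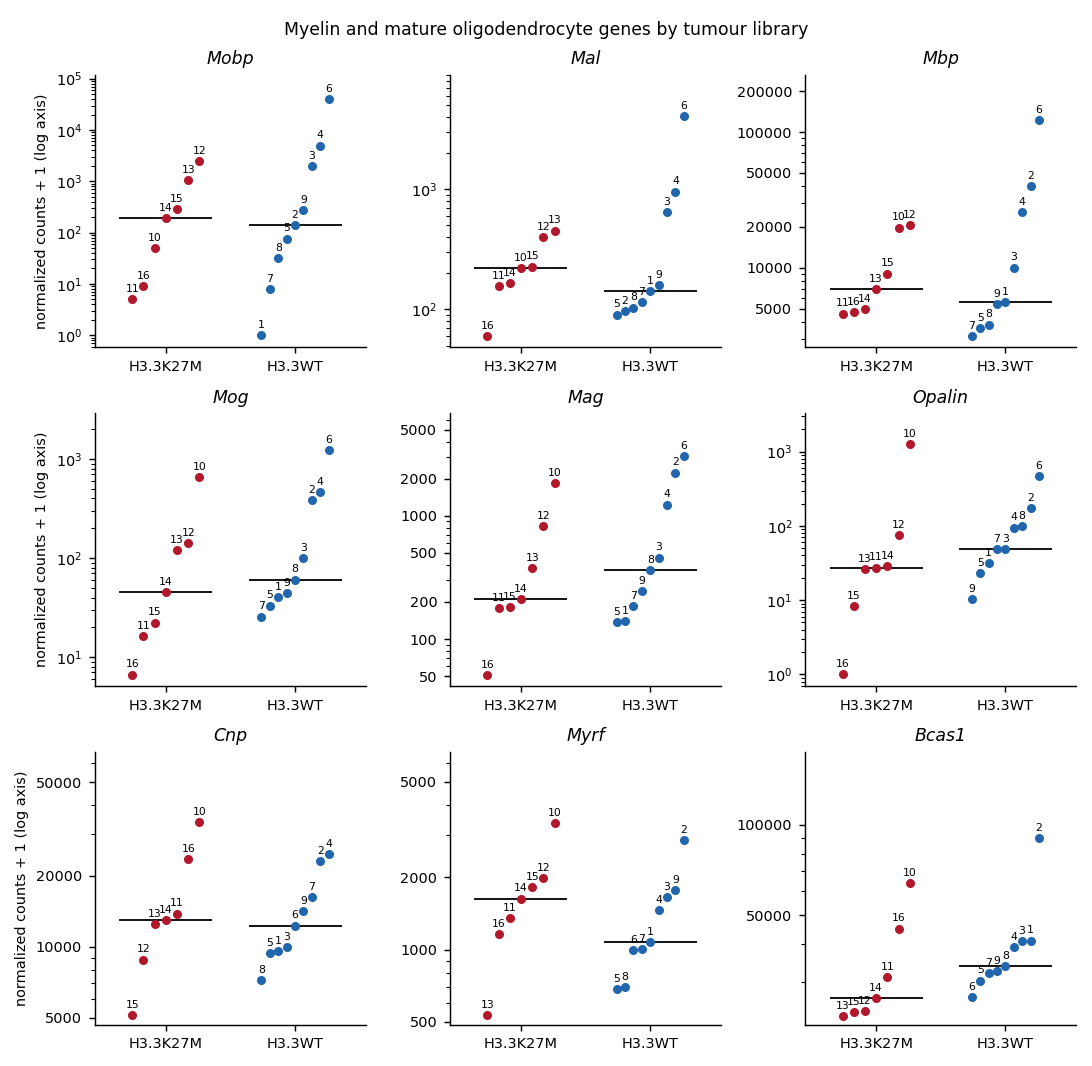
Normalized counts + 1 (log axes) of the 9 genes, with 1 point per tumour library marked by its library number, H3.3K27M at left and H3.3WT at right, and a line at each group's median. The groups overlap in every panel. Library 6 is the highest H3.3WT library for Mobp, Mal, Mbp, Mog, Mag and Opalin, and library 10 the highest H3.3K27M library for Mog, Mag, Opalin, Cnp, Myrf and Bcas1.

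Per kilobase of exon, Bcas1 stood highest of the 9 genes, with a median of 7042 normalized counts per kilobase in H3.3K27M and 8983 in H3.3WT tumours. Cnp followed at 4128 in H3.3K27M and 3918 in H3.3WT tumours, and then Mbp at 1071 in H3.3K27M and 849 in H3.3WT tumours. Myrf had a median of 190.4 per kilobase in H3.3K27M and 125 in H3.3WT tumours. The other 5 genes had medians of 21.4 to 79.0 per kilobase in H3.3K27M and 29.5 to 90.4 in H3.3WT tumours. The ranges of these 5 genes overlapped in both groups. Such ranges set different libraries against each other, and the order of the genes within a library was not tested. The ranges of Bcas1 and Cnp overlapped as well, as did those of Cnp and Mbp. In H3.3K27M tumours Cnp reached 10765 per kilobase (library 10), above the lowest Bcas1 value of 6136 (library 13). Those values come from different libraries, and in library 10 Bcas1 was at its own highest H3.3K27M value of 16923. Mbp and Myrf did not overlap, with the lowest Mbp value above the highest Myrf value in H3.3K27M (701 and 392 per kilobase) and in H3.3WT tumours (479 and 334).

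Compact myelin genes were high in a few tumours of either group. Mobp (mm10, chromosome 9, 120149741 to 120176091) had 4.07, 192 and 2440.4 normalized counts as its lowest, median and highest values in H3.3K27M tumours, against 0, 141 and 39442 in H3.3WT tumours. The highest H3.3K27M libraries were 12 and 13 (1067), and the highest H3.3WT libraries were 6, 4 (4959) and 3 (1943), whereas library 1 had no read and libraries 7, 11 and 16 had under 10. The groups overlapped, but H3.3WT libraries 6 and 4 lay above every H3.3K27M library and library 1 lay below them all. The log2 fold change of Mobp was -0.66 ± 1.86 (SE), with an adjusted p of 0.888 by limma with Benjamini-Hochberg adjustment. Its sign turned when 1 library was left out: it was 0.30 without library 6 and 0.093 without library 11.

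Mbp (chromosome 18, 82554462 to 82585637), which encodes the basic protein that holds the cytoplasmic faces of myelin together, had 4596, 7016 and 20520.4 normalized counts as lowest, median and highest in H3.3K27M tumours. In H3.3WT tumours these were 3135, 5565 and 122652. Libraries 12 and 10 (19779.7) stood above the other H3.3K27M libraries, and libraries 6, 2 (40096) and 4 (25565) above all other libraries of both groups. The remaining H3.3K27M libraries lay within the range of the remaining H3.3WT libraries. Mbp averaged 10095 ± 7053 in H3.3K27M (SD, n = 7) and 24428 ± 38943 in H3.3WT tumours (SD, n = 9). Its log2 fold change was -0.34 ± 0.68 (SE; limma with Benjamini-Hochberg adjustment, adjusted p = 0.835), and 0.10 without library 6. On recovered reads it was -1.27 by edgeR, -1.28 by DESeq2 and -0.66 by voom, without a call. The deposited interval of Mbp starts inside the gene as annotated, which begins at 82475146 and includes the upstream exons of the longer golli transcripts, and gene-level values do not separate the transcripts.

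Mal (chromosome 2, 127633225 to 127656695) encodes a small membrane proteolipid of myelin. It had 59.0, 219 and 451 normalized counts as lowest, median and highest in H3.3K27M tumours, against 89.3, 141 and 4071 in H3.3WT tumours. As for Mobp, the highest were libraries 13 and 12 (400.4) among H3.3K27M and libraries 6, 4 (955) and 3 (647) among H3.3WT tumours. The H3.3K27M median was the higher one and 6 of 7 H3.3K27M libraries lay above the H3.3WT median, while the H3.3K27M mean of 239 ± 139 (SD, n = 7) was below the H3.3WT mean of 708 ± 1298 (SD, n = 9). The log2 fold change was -0.37 ± 0.72 (SE; limma with Benjamini-Hochberg adjustment, adjusted p = 0.830), and 0.12 without library 6. On recovered reads it was -1.56 by edgeR and -1.57 by DESeq2, without a call.

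Genes of the myelin surface were high in library 10 as well as in library 6. Mog (chromosome 17, 37010739 to 37023398), the glycoprotein of the outermost myelin surface, had 5.66, 44.5 and 661 normalized counts as lowest, median and highest in H3.3K27M tumours. The same values were 24.6, 59.7 and 1235 in H3.3WT tumours. Library 10 stood apart from the other H3.3K27M libraries, the next being library 12 at 140.3, and libraries 6, 4 (461) and 2 (380.5) led the H3.3WT libraries. Its log2 fold change was -1.02 ± 0.94 (SE; limma with Benjamini-Hochberg adjustment, adjusted p = 0.621), and -1.62 without library 10 and -0.52 without library 16.

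Mag (chromosome 7, 30899182 to 30914832), an adhesion molecule of the membrane next to the axon, had 50.1, 209 and 1844 normalized counts as lowest, median and highest in H3.3K27M tumours. In H3.3WT tumours these were 137, 364 and 3072. Its high libraries were 10 and 12 among H3.3K27M and 6, 2 (2247) and 4 (1233) among H3.3WT tumours, and library 16 lay below all others. The log2 fold change was -0.68 ± 0.76 (SE; limma with Benjamini-Hochberg adjustment, adjusted p = 0.687), -1.13 without library 10 and -0.26 without library 16.

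Opalin (chromosome 19, 41063419 to 41077113), a transmembrane protein made by late oligodendrocytes, had 0, 26.5 and 1274 normalized counts as lowest, median and highest in H3.3K27M tumours, against 9.25, 48.2 and 469 in H3.3WT tumours. Library 10 held the highest value of all 16, the next H3.3K27M library, 12, had 73.7, and library 16 had no read, while 5 of 7 H3.3K27M libraries lay below the H3.3WT median. The mean was therefore higher in H3.3K27M tumours (205 ± 472, SD, n = 7) than in H3.3WT tumours (110 ± 144, SD, n = 9), whereas the log2 fold change was -1.11 ± 1.07 (SE; limma with Benjamini-Hochberg adjustment, adjusted p = 0.638). It was -2.02 without library 10 and -0.30 without library 16.

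Count models gave Opalin both signs. edgeR's fit of the recovered reads gave a log2 fold change of 0.90, and DESeq2 gave -1.89. By default DESeq2 replaces a count that lies far from the others of its group, and it had put 57 reads in place of the 1469 that library 10 held for Opalin. Without that replacement, a setting added after the data were seen, DESeq2's log2 fold change was 0.89. The adjusted p of Opalin was 0.698 by edgeR's quasi-likelihood test and 0.153 by DESeq2, which gave no adjusted p without the replacement. The authors' deposited table lists Opalin at a log2 fold change of -0.79 ± 0.33 (SE) with an FDR adjusted p of 0.149, beside group means of 205 in H3.3K27M and 110 in H3.3WT tumours. The overall mean of Opalin in the authors' deposited table is 75.1, whereas the plain mean of the 16 libraries is 152.

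Mobp and Mal also have overall means in the authors' deposited table below the plain means. For Mobp the authors' deposited table gives 743, against a plain mean of 3182, and for Mal it gives 262, against 503. DESeq2 as run here replaced 2 Mobp counts: 423 reads stood in for 41546 in library 6 and 391 for 2383 in library 12. The Mobp log2 fold change was -1.61 with the replacement and -3.18 without it. Mal had no count replaced in this run, and its log2 fold change was -1.57 in both settings. All 9 genes have an adjusted p above 0.05 in the authors' deposited table, in which 1.41% of the genes with an adjusted p passed.

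**Figure D2:**
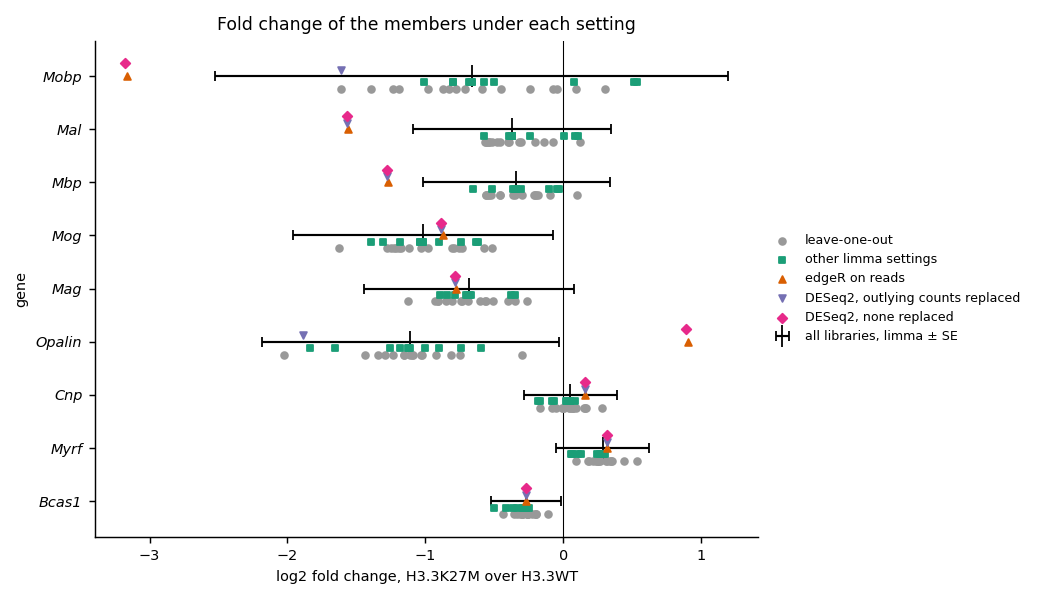
Log2 fold change of H3.3K27M over H3.3WT for each gene, as the limma value with its SE (black) and under each other setting (coloured points by kind). Opalin lies at -1.11 by limma and -1.89 by DESeq2 with outlying counts replaced, but at 0.90 by edgeR and 0.89 by DESeq2 with none replaced, and Mobp runs from -3.18 to 0.53.

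The earlier genes of the lineage were more even. Cnp (chromosome 11, 100574938 to 100581739), an enzyme of the myelin cytoplasm that is already made in precursors, had 5138, 12969 and 33824 normalized counts as lowest, median and highest in H3.3K27M tumours. In H3.3WT tumours these were 7254, 12311 and 24840. Libraries 10 and 16 (23539) were high among H3.3K27M and libraries 4 and 2 (23168) among H3.3WT tumours, and library 6, which led for Mobp, was at the H3.3WT median. Its log2 fold change was 0.050 ± 0.34 (SE; limma with Benjamini-Hochberg adjustment, adjusted p = 0.955). The sign changed without library 1 (-0.0053), 5 (-0.0077), 8 (-0.055), 10 (-0.17) or 16 (-0.084). Dnajc7 on the opposite strand shares 154 exonic bases with Cnp (4.23% of its exons), and as the strand setting of the counting is not given in the sources used here, reads there cannot be told apart.

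Myrf (chromosome 19, 10208270 to 10240748), the transcription factor that switches on the myelin genes, had 532, 1630.0 and 3357 normalized counts as lowest, median and highest in H3.3K27M tumours, against 683, 1072 and 2863 in H3.3WT tumours. Library 10 in H3.3K27M and library 2 in H3.3WT stood above the rest of their groups, and 6 of 7 H3.3K27M libraries lay above the H3.3WT median. The log2 fold change was 0.28 ± 0.34 (SE; limma with Benjamini-Hochberg adjustment, adjusted p = 0.708), and it ran from 0.089 without library 10 to 0.53 without library 13.

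Bcas1 (chromosome 2, 170346990 to 170427845), which marks oligodendrocytes in the act of forming myelin, had 23162, 26582 and 63883 normalized counts as lowest, median and highest in H3.3K27M tumours. In H3.3WT tumours these were 26734, 33909 and 90348. Libraries 10 and 16 (45178) among H3.3K27M and library 2 among H3.3WT were high, and library 6 had the lowest H3.3WT value. Of the 7 H3.3K27M libraries 5 lay below the H3.3WT median. The log2 fold change was -0.27 ± 0.26 (SE; limma with Benjamini-Hochberg adjustment, adjusted p = 0.630), -0.44 without library 10 and -0.12 without library 2. The antisense genes Bcas1os1 and Bcas1os2 share 440 and 34 exonic bases with Bcas1, and their reads cannot be told apart from its own without a strand setting.

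Across the 16 tumours many of the genes varied together. Correlations were computed on deviations from the group means of log2(value + 1), so that a difference between groups does not enter, for all 36 pairs of genes. By permutation, 15 pairs passed an adjusted p of 0.05 with Pearson's r, all with r above 0, and 13 with Spearman's rho. Without the 2 libraries farthest from the median of 1 gene of the pair, 11 passed. Within H3.3K27M tumours alone 4 pairs passed by exact permutation, and within H3.3WT tumours alone 8. The number of pairs with r above 0.5 was no smaller there, at 15 in H3.3K27M and 18 in H3.3WT tumours, against 15 over all libraries. They were not all the same pairs. Within H3.3K27M tumours Mag and Mobp had an r of 0.47, against 0.64 over all libraries, and Mbp and Myrf 0.59, against 0.44. The groups hold 7 and 9 libraries, and the part of this in the fewer calls was not tested. The 15 called pairs were all 10 pairs among Mbp, Mog, Mag, Mobp and Mal, the pairs of Opalin with Mbp, Mog and Mag, and the pairs of Bcas1 with Cnp and Myrf. No pair between the first 6 genes and Cnp, Myrf or Bcas1 passed, and 4 pairs had r below 0. All libraries share the normalization and the kind of tissue.

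Mog and Mag, the surface genes, were the closest pair. Their r was 0.97 (permutation adjusted p = 9e-05) and their rho 0.95 (permutation adjusted p = 0.00036), and r was 0.95 without libraries 10 and 6. Within H3.3K27M tumours r was 0.97 (exact permutation adjusted p = 0.00714), and within H3.3WT tumours it was 0.97 (exact permutation adjusted p = 0.00362). The unadjusted permutation p of 1e-05 for both r and rho is the smallest these permutations can give. Opalin followed both: its r was 0.86 with Mag and 0.86 with Mog (permutation adjusted p = 9e-05 each), and its rho was 0.88 with Mag and 0.81 with Mog (permutation adjusted p = 0.00072 and 0.00192). Without the 2 farthest libraries the r of Opalin was 0.86 with Mag and 0.75 with Mog. The pairs of Opalin passed within H3.3K27M tumours, with r of 0.95 for Mag and 0.92 for Mog (exact permutation adjusted p = 0.0446 each). They also passed within H3.3WT tumours, with r of 0.85 for Mag and 0.83 for Mog (exact permutation adjusted p = 0.0216 and 0.0263).

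Mobp and Mal were correlated with each other and with the surface genes. Their r was 0.83 (permutation adjusted p = 0.0006), their rho 0.81 (permutation adjusted p = 0.00192) and their r without libraries 1 and 6 was 0.82. Within H3.3WT tumours r was 0.84 (exact permutation adjusted p = 0.0216), and within H3.3K27M tumours r was also 0.82 but did not pass (exact permutation adjusted p = 0.109). Mobp and Opalin, both genes of late oligodendrocytes, had an r of 0.33 (permutation adjusted p = 0.313), a rho of 0.37 (permutation adjusted p = 0.263) and an r of 0.17 without libraries 1 and 6. With Mog, Mobp had an r of 0.66 and a rho of 0.73 (permutation adjusted p = 0.0176 and 0.00963), and with Mag an r of 0.64 and a rho of 0.69 (permutation adjusted p = 0.0207 and 0.0182). Mal had r of 0.69 with Mog and 0.63 with Mag (permutation adjusted p = 0.00911 and 0.0207), and rho of 0.66 with Mog and 0.65 with Mag (permutation adjusted p = 0.0239 and 0.0246). Without the 2 farthest libraries these 4 pairs had r of 0.60 to 0.73 and all but Mobp with Mag passed (permutation adjusted p = 0.0676 for that pair). Of the 4, Mobp with Mog alone passed within H3.3WT tumours (r = 0.79, exact permutation adjusted p = 0.0499), and none passed within H3.3K27M tumours.

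Mbp was correlated with all 5 of these genes, with an r of 0.88 with Mag (permutation adjusted p = 9e-05) and 0.72 with Mal (permutation adjusted p = 0.00911). For these 2 pairs rho was 0.83 with Mag (permutation adjusted p = 0.00192) and 0.62 with Mal (permutation adjusted p = 0.0339), and r without libraries 2 and 6 was 0.84 and 0.79. Within H3.3K27M tumours neither pair passed, at r of 0.86 with Mag (exact permutation adjusted p = 0.0871) and 0.57 with Mal (exact permutation adjusted p = 0.448). Within H3.3WT tumours Mbp and Mag passed (r = 0.95, exact permutation adjusted p = 0.00473), and Mbp and Mal did not (r = 0.75, exact permutation adjusted p = 0.0588).

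Bcas1 correlated with Cnp and Myrf over all 16 libraries. With Cnp its r was 0.70 (permutation adjusted p = 0.00911) and its rho 0.56 (permutation adjusted p = 0.0666), and r was 0.58 without libraries 10 and 15 (permutation adjusted p = 0.0678), so the relation rests in part on those libraries. That pair passed within H3.3K27M tumours (r = 0.88, exact permutation adjusted p = 0.0446) and not within H3.3WT tumours (r = 0.49, exact permutation adjusted p = 0.335). With Myrf its r was 0.63 (permutation adjusted p = 0.0262), its rho 0.45 (permutation adjusted p = 0.182) and its r without libraries 10 and 13 was 0.48 (permutation adjusted p = 0.181). The pair of Bcas1 and Myrf was therefore called only by r over all libraries. It passed in neither group alone, with r of 0.50 in H3.3K27M, which holds both of those libraries (exact permutation adjusted p = 0.483). In H3.3WT tumours, which hold neither, r was 0.76 (exact permutation adjusted p = 0.0568). With Mobp and Mal the r of Bcas1 was -0.31 and -0.35, and neither passed (permutation adjusted p = 0.331 and 0.284).

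**Figure D3:**
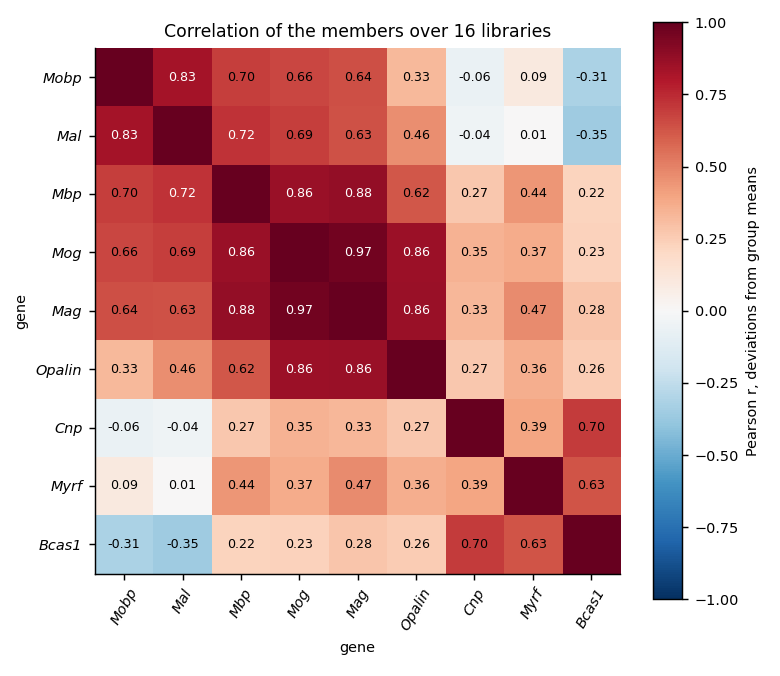
Pearson's r between each pair of the 9 genes over 16 libraries, computed on deviations from the group means of log2(value + 1). Mog and Mag have 0.97, Mobp and Mal 0.83, and Mog and Mobp 0.66, whereas Bcas1 has -0.31 with Mobp and 0.70 with Cnp.

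RefSeq promoter windows of GRCm38.p6 were matched for 6 of the 9 genes (Mog, Mag, Opalin, Mobp, Mal and Cnp), and those of the correlated genes are shown because these genes varied together among tumours. Each is read 5′ to 3′ on the gene's strand and ends at the RefSeq start, except that of Mobp, which ends before its first annotated exon. Capitals mark the letters CTGGCAC or CTGGTAC of the MYRF motif and ACAAAG or ACAATG of the SOX motif, on either strand.
Mog promoter (chr17:37023399-37023648, minus strand): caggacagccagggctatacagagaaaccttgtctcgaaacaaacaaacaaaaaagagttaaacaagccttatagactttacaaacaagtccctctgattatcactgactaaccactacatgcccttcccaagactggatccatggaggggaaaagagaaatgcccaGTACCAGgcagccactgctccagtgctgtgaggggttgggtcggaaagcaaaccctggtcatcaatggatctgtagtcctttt
Mag promoter (chr7:30914923-30915172, minus strand): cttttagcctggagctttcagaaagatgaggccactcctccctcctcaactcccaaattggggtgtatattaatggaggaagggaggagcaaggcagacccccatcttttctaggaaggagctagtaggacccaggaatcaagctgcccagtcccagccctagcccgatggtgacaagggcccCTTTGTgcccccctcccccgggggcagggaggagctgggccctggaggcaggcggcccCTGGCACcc
Opalin promoter (chr19:41077114-41077363, minus strand): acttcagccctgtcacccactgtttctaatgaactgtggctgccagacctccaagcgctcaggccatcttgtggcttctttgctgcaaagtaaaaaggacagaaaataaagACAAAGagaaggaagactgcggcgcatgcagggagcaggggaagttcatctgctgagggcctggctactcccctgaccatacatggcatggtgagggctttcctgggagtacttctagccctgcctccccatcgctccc
Mobp promoter (chr9:120149492-120149706, plus strand): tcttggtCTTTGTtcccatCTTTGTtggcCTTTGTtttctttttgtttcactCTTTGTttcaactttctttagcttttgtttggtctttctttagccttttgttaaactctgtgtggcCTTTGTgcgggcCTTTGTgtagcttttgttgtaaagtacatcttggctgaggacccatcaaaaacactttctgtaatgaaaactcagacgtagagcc
Mal promoter (chr2:127656696-127656945, minus strand): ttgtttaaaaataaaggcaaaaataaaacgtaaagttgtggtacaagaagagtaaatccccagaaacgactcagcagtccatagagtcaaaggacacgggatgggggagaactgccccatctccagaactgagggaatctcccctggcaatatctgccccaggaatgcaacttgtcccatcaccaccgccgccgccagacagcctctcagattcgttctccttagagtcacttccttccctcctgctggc
The MYRF letters lay in 3 of the 6 windows, Mog, Mag and Cnp, against 5.93% of the 32851 promoter windows of 250 bases, and the Mag match was 9 bases before the start. The SOX letters lay in 4 of the 6 windows, Mag, Opalin, Mobp and Cnp, against 25.2% of all windows, and the Mobp window held 6 of them, all on the opposite strand. CAGCTG, an E-box, lay in 0 of the 6 windows and in 13.0% of all windows, and TATAAA in 0 of the 6 and in 12.4%. No match overlapped a match of another motif in the windows shown. These are matches of letters and describe no binding.

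Library 10 (H3.3K27M) and libraries 2 and 6 (H3.3WT) carried most of the high values. Libraries 10 and 6 each led their group for Mog, Mag and Opalin, and libraries 6 and 2 were the highest H3.3WT libraries for Mbp, Mag and Opalin, but they parted in other genes. Library 10 had 60164 normalized counts of Gpr17, a receptor of committed precursors, and 2132 of Enpp6, an early differentiation enzyme, the highest of all 16, and library 2 came next with 41524 and 1105. Mobp was at 48.5 in library 10, under the H3.3K27M median of 192, and at 141 in library 2, which is the H3.3WT median. Ermn, a cytoskeletal gene of late oligodendrocytes, had 8.67 normalized counts in library 10 and 21.7 in library 2, in each case the second lowest of the group. Aspa, the aspartoacylase of mature oligodendrocytes, had 3.47 normalized counts in library 10 and 1.08 in library 2. The summed level of 18 committed precursor genes was highest in library 10 (158672), followed by library 2 (135973).

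Library 6 had 39442 normalized counts of Mobp, 852 of Ermn, 132 of Aspa and 504 of Klk6, a protease of mature oligodendrocytes, each the highest of the 16 libraries. Its Gpr17 was 6099.6 and its Enpp6 162. Library 4 (H3.3WT) came next for Mobp (4959), Ermn (255) and Aspa (129), and library 12 (H3.3K27M) for Klk6 (196). At the low end stood library 16 (H3.3K27M), with 0 reads of Opalin, Ermn, Aspa and Klk6, 5.66 normalized counts of Mog and 8.08 of Mobp, but 45178 of Bcas1 and 23539 of Cnp. High Bcas1 and Cnp therefore came both with high Mag and Opalin, in library 10, and with the lowest, in library 16.

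**Figure D4:**
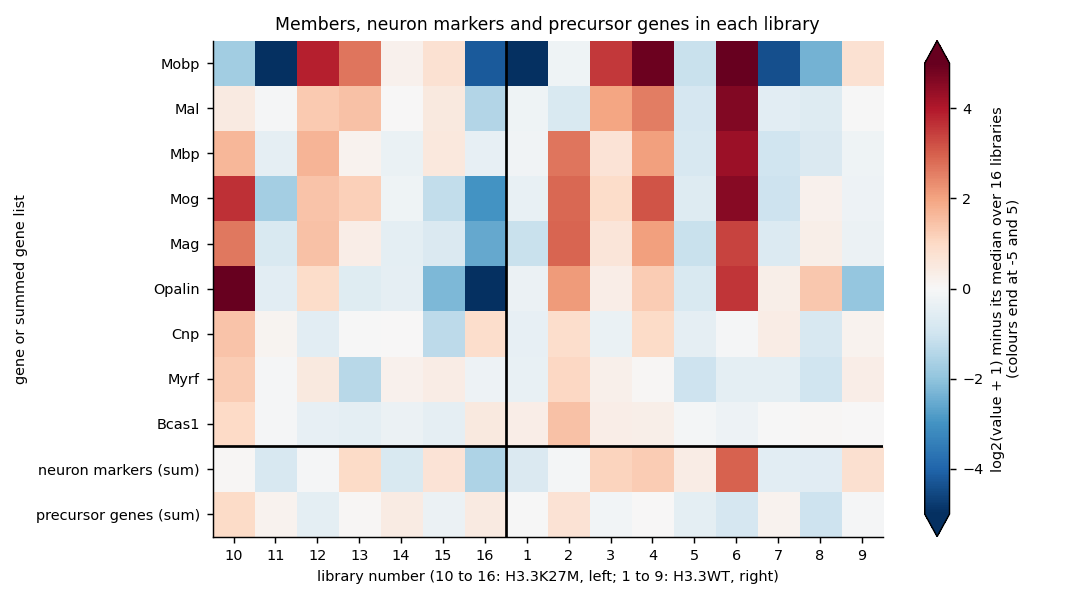
Log2(value + 1) minus its median over the 16 libraries for the 9 genes and for the summed neuron markers and committed precursor genes, H3.3K27M libraries at left and H3.3WT libraries at right. Library 6 is high in Mobp, Mal and neuron markers, whereas libraries 10 and 2 are high in Myrf, Bcas1 and precursor genes.

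Markers of normal brain moved with part of the genes. The summed level of 20 neuron markers was 5723, 15989 and 32495 normalized counts (lowest, median and highest) in H3.3K27M tumours, against 10046, 21624 and 128859 in H3.3WT tumours. Library 6 had the highest sum and library 16 the lowest. Among 54 relations between a gene and a marker list, a comparison added after the data were seen, 10 passed by Pearson's r, 5 by Spearman's rho and 2 without the 2 farthest libraries. Those 2 were Mobp and Mal with the neuron markers.

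Mobp had an r of 0.87 with the neuron markers (permutation adjusted p = 0.00135), a rho of 0.84 (permutation adjusted p = 0.00351) and an r of 0.81 without libraries 16 and 6 (permutation adjusted p = 0.0292). Mal had an r of 0.88 (permutation adjusted p = 0.00135), a rho of 0.84 (permutation adjusted p = 0.00351) and an r of 0.77 without the same libraries (permutation adjusted p = 0.0494). Within H3.3WT tumours both passed, Mobp with r = 0.94 (exact permutation adjusted p = 0.00194) and Mal with r = 0.91 (exact permutation adjusted p = 0.0262). Within H3.3K27M tumours neither did, Mobp with r = 0.70 and Mal with r = 0.85 (exact permutation adjusted p = 0.655 each). Mobp and Mal also had r of 0.77 and 0.76 with 15 astrocyte markers (permutation adjusted p = 0.00837 each), and rho of 0.70 and 0.69 (permutation adjusted p = 0.0430 each). These passed within H3.3WT tumours (r of 0.92 and 0.83, exact permutation adjusted p = 0.0200 and 0.0487), and not within H3.3K27M tumours (0.29 and 0.45) or without libraries 6 and 8 (0.69 and 0.58, permutation adjusted p = 0.0871 and 0.202). The part of normal brain in these relations was not tested.

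For Opalin the relation with neuron markers did not pass, with an r of 0.37 (permutation adjusted p = 0.379), a rho of 0.20 (permutation adjusted p = 0.837) and an r of -0.010 without the 2 farthest libraries. Opalin and Mag had r of 0.66 and 0.68 with 15 microglia and macrophage markers (permutation adjusted p = 0.0369 each), with rho of 0.69 and 0.62 (permutation adjusted p = 0.0430 and 0.0825). Without the 2 farthest libraries r was 0.62 and 0.69 and neither passed (permutation adjusted p = 0.179 and 0.0871), and neither passed within a group. Mbp and Mog passed with neuron and with astrocyte markers by Pearson's r (0.63 to 0.67) but not by rho, and not without the 2 farthest libraries or within a group. With the neuron score as a covariate, Mobp had a log2 fold change of 0.53 and Mal of 0.081, both above 0, and the median of the 9 genes was -0.032.

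**Figure D5:**
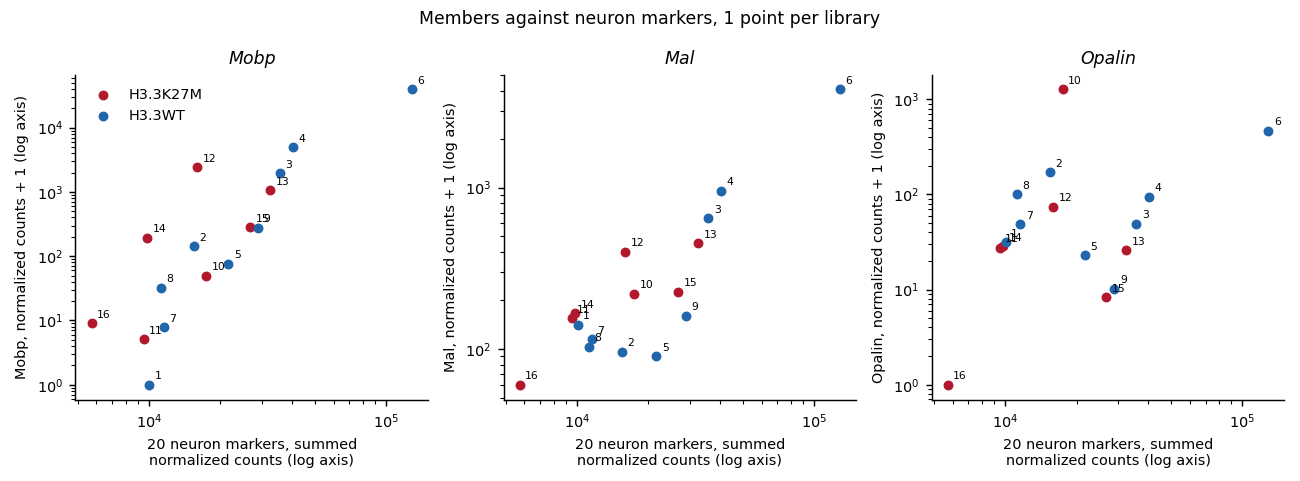
Mobp, Mal and Opalin (normalized counts + 1) against the summed normalized counts of 20 neuron markers, log axes, 1 point per library marked by its number and coloured by group. Mobp and Mal rise along the neuron markers (r = 0.87 and 0.88 on deviations from group means), and Opalin is highest in library 10, whose neuron sum of 17459 is close to the H3.3K27M median of 15989.

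Limma called no other gene of the lists for the same biology. Of 20 other myelin sheath genes 8 were above and 12 below 0 in log2 fold change, 0 passed limma's adjusted threshold in either direction, and their median was -0.10 (0.067 without library 15). Pllp, a myelin proteolipid, averaged 2999 ± 1865 normalized counts in H3.3K27M (SD, n = 7) and 4252 ± 2036 in H3.3WT tumours (SD, n = 9), and Gjc3, a gap junction gene of glia, averaged 17710.2 ± 6525 and 12306 ± 4649 in the same groups. Of 26 other genes of mature oligodendrocytes 25 were tested, 9 above and 16 below 0, with 0 past the threshold and a median of -0.25. Among them Trf, the iron carrier transferrin, averaged 301 ± 185 in H3.3K27M (SD, n = 7) and 806 ± 574 in H3.3WT tumours (SD, n = 9), a log2 fold change of -1.29 ± 0.45 (SE; limma with Benjamini-Hochberg adjustment, adjusted p = 0.259). Unadjusted, 0 of the sheath genes and 2 of the 25 mature genes, Trf and Qdpr, both lower, had a limma p under 0.05. Of all genes, 6.61% were lower at that threshold.

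Of 18 genes of committed precursors 14 were above and 4 below 0, with 0 past the threshold and a median of 0.21 (0.0028 without library 10). Tns3, a gene of oligodendrocytes at the start of differentiation, averaged 13597 ± 4448 in H3.3K27M (SD, n = 7) and 8827 ± 3856 in H3.3WT tumours (SD, n = 9). Of 20 regulators of Myrf and of myelination 14 were above 0, 0 passed and the median was 0.084. Without library 10, 10 were above and 10 below 0, with a median of 0.035. Of the regulators 5 were higher at a limma p under 0.05 before adjustment, against 8.7% of all genes. Zfp488, a transcription regulator that promotes oligodendrocyte differentiation, averaged 2728 ± 827 in H3.3K27M (SD, n = 7) and 1549 ± 720 in H3.3WT tumours (SD, n = 9), with a log2 fold change of 0.92 ± 0.29 (SE; limma with Benjamini-Hochberg adjustment, adjusted p = 0.257). Of 18 inhibitors of differentiation 9 were above and 9 below 0, with 0 past the threshold and a median of 0.054. Before adjustment 3 of the 18 inhibitors were higher at a limma p under 0.05, against 8.7% of all genes. Sox6, a transcription factor that holds progenitors back from differentiating, averaged 15083 ± 4105 in H3.3K27M (SD, n = 7) and 8709 ± 2423 in H3.3WT tumours (SD, n = 9), a log2 fold change of 0.79 ± 0.20 (SE; limma with Benjamini-Hochberg adjustment, adjusted p = 0.257). Of these genes Ep300, a histone acetyltransferase among the regulators, and Sox6 passed DESeq2's Wald test, which called 0.72% of genes.

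Of 22 progenitor markers 14 were above and 8 below 0, with 0 past the threshold and a median of 0.078 (-0.0065 without library 6). Before adjustment 3 of the 22 progenitor markers were higher at a limma p under 0.05, against 8.7% of all genes. They include Sox6 and Sox5, which are also on the list of inhibitors. Of 24 genes of myelin lipid and cholesterol synthesis 17 were above and 7 below 0, with 0 past the threshold and a median of 0.11. Among markers of other cells, 16 of 20 neuron markers lay below 0 with a median of -0.63, 10 of 15 microglia and macrophage markers with a median of -0.31, and 13 of 15 endothelial markers with a median of -0.50. The neuron median was -0.28 without library 6 (12 of 20 below 0) and -0.27 without library 16 (14 of 20 below 0). Astrocyte markers had a median of -0.14 with 8 of 15 below 0, and all 5 blood haemoglobin genes lay below 0 with a median of -2.77. The astrocyte median lay above 0 without library 3 (0.070), 4 (0.0039), 6 (0.26), 9 (0.025) or 16 (0.25). None of these markers passed limma's adjusted threshold, and DESeq2's Wald test called the neuron marker Thy1 and the vessel marker Plvap, both lower. Of 10 Schwann cell and peripheral myelin markers 7 were tested, 3 above and 4 below 0, with 0 past the threshold.

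Genes outside the 9 were ranked by the median of their 9 correlations over 16 libraries, and 7 of the first 8 were Tmem125, Mlc1, Slc13a3, Clstn2, Tmem151a, Klc2 and 2900052N01Rik. Their median r ran from 0.77 for Tmem125 to 0.72 for 2900052N01Rik. Each of the 7 had a higher r with Mobp, Mal, Mbp, Mog and Mag than with Bcas1: Tmem125 had an r of 0.88 with Mobp and -0.12 with Bcas1. A ranking by the median favours genes that follow those correlated genes, so this pattern follows largely from how the 7 were picked. The levels of Tmem125 were low, with 0, 7.36 and 19.5 normalized counts as lowest, median and highest in H3.3K27M tumours, against 0.902, 9.76 and 87.3 in H3.3WT tumours. Mlc1, also on the astrocyte marker list, had 76.8, 614 and 945 in H3.3K27M tumours and 94.8, 711 and 7937 in H3.3WT tumours by the same measures, and the groups overlapped for both genes.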

How the data were processed

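Tumour RNA was made into mRNA libraries and read as short single reads, per the labels' protocols. The submitters' processing notes name STAR 2.7, HTSeq, DESeq2 and mm10 without saying what each did, and the annotation, settings and strand are not given. Each library column that the authors deposited is a signal of at least 0, here called normalized counts. Dividing a column by its smallest positive value gave whole reads for 100% of values (tolerance 0.01 reads). Other deposited columns hold group means and the authors' comparison: per the file headers, a log2 fold change with its error, a Wald score, a p-value and an FDR adjusted p-value. The authors' overall mean is more than 1% under the plain mean for 634 genes.

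Repeated Ensembl IDs (208 of 23563 lines with values) were dropped, leaving 23355 genes, 23322 of them in the reference gene table. Genes reaching 10 normalized counts in 7 or more libraries (15007) were tested on log2(value + 1) by limma 3.58.1 with a mean-variance trend. P-values were adjusted by the Benjamini-Hochberg method, with 0.05 as the threshold. Fold changes are H3.3K27M over H3.3WT on that scale, where the 1 added to each value can shift those of low genes in either direction. With 0.5 and with 5 added instead, Opalin had -1.26 and -0.74, and Mobp had -0.575 and -0.80. As alternatives, edgeR 4.0.16 and DESeq2 1.42.0 were run on the reads, besides other scalings, pseudocounts and filters, voom, libraries left out, a neuron score covariate and removal of the exon length trend of each library. Correlations used 100000 permutations, or exact permutation within groups, with adjustment over each family of relations. R 4.3.3, Python 3.11.15, pandas 2.3.3 and scipy 1.17.1 were used, and the fits were tested on simulated counts.

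The members and lists were chosen with earlier results of these data known. Besides the 9 members, named genes were up to 4 per list with the smallest p, of which the text gives some, the 8 genes most correlated with the members, and genes overlapping a member; 1 of the 8 is not reported here. Gpr17, Enpp6, Ermn, Aspa, Klk6, Cldn11, Ugt8a, Gfap and Hbb-bs were named after their values were seen. Exon lengths came from GENCODE M21 within the deposited intervals. Tumours are described as independent in the design note, so p-values speak to the spread among libraries. Batches could not be linked to libraries, so values within batches were not possible.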

Additional observations from a re-analysis of the deposited data

Results flagged for a closer look

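Of the 18 sets of values (9 genes in each of 2 groups), 9 had a highest library that stood apart from the rest of its group by Dixon's gap at the 95% level. The gap was taken on normalized counts and not on log2 values. A rate of about 1 chance flag in 20 sets holds for normally distributed values. Counts with a long upper tail can be flagged more often, so the number of flags is not set against that rate. The genes are also correlated, so these are not independent flags. Library 10 of the H3.3K27M group stood apart in Mog (661 normalized counts, next 140.3) and in Opalin (1274, next 73.7). Library 6 of the H3.3WT group stood apart in Mbp (122652, next 40096), Mog (1235, next 461), Mobp (39442, next 4959), Mal (4071, next 955) and Opalin (469, next 171). Library 2 of the H3.3WT group stood apart in Myrf (2863, next 1764) and in Bcas1 (90348, next 41176). Library 6 also held the most blood, neuron and astrocyte marker RNA, with Hbb-bs at 312025, summed neuron markers at 128859 and Gfap at 58836 normalized counts. Summed microglia and macrophage markers were highest there too (49948), and library 10 led the H3.3K27M libraries for them (38057). Library 10 held 4557 of Gfap and a neuron sum of 17459. The part of these markers in the high values was not tested.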

How the results depend on the processing

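The count of genes past the threshold was 0 by limma and became 108 by DESeq2, 102 by DESeq2 without replacement of outlying counts, 2 by voom, 2 without libraries 2 and 10, 2 without libraries 6 and 10, and 0 to 13 when 1 library was left out (13 without library 10, 1 without library 3); none of the 9 genes was among them. The 15 correlated pairs became 4 within H3.3K27M and 8 within H3.3WT tumours, where as many pairs or more had r above 0.5, though not all the same pairs. The median of the 9 genes was -0.88 by DESeq2, -0.78 by edgeR and -0.66 by voom, and -0.57 to 0.040 leaving out 1 library. The sign of a fold change turned for Mobp (0.074 without libraries 6 and 8, 0.51 without 6 and 10, 0.53 with the neuron score; -1.61 to 0.30 leaving out 1 library), for Mal (0.000552, 0.10 and 0.081 in the same settings; -0.57 to 0.12) and for Mbp (-0.56 to 0.10 leaving out 1 library). It turned for Cnp by voom (-0.17), without libraries 6 and 8 (-0.082), 2 and 10 (-0.067) or 6 and 10 (-0.18), and between -0.17 and 0.28 leaving out 1 library. Opalin turned by edgeR (0.90) and by DESeq2 without replacement (0.89). Mog, Mag, Bcas1 and Myrf kept their sign in all settings run. Of the 36 pairs, 7 changed sign by rho, without 2 libraries or within a group, none of them called, and of the 54 relations with marker lists 24 did, 1 of them called. Among those given here, Mbp with astrocyte markers was -0.20 within H3.3K27M tumours, and Opalin with neuron markers -0.010 without the 2 farthest libraries. Apart from the replacement of counts and the libraries left out, the cause of each change was not tested. No paired analysis was possible because the columns carry no replicate number of the labels. Depth limits the lowest values most: where no read was found, library 8 still allows 8.52 normalized counts.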

Other observations

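Not every gene of myelin membranes followed the 9 genes. Cldn11, the tight junction gene of central myelin, had 1146 normalized counts in library 13 as its lowest and 7240 in library 10 as its highest H3.3K27M value. In H3.3WT tumours its lowest value was 3002 in library 5, and its highest was 12208 in library 1, the library with no read of Mobp. Library 16, lowest of all for Mog, Mag and Mal, had 6642 of Cldn11. Ugt8a, the enzyme that makes the galactolipid of myelin, ran from 3917 (library 15) to 8855 (library 11) in H3.3K27M and from 2250 (library 8) to 8073 (library 1) in H3.3WT tumours, and library 6 had 3148. These values are given without a test.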
